A study of Homo sapiens with 2 samples.

Results

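The protein kinase C and protein kinase D genes were followed in L-540, an established Hodgkin lymphoma cell line, on 1 array of cells treated with vorinostat, an inhibitor of histone deacetylases, and 1 array of untreated cells. The members were every probe set whose platform gene symbol was PRKCA, PRKCB, PRKCD, PRKCE, PRKCH, PRKCI, PRKCQ, PRKCZ, PRKD2 or PRKD3. These 10 genes carried 20 of the 22215 non-control probe sets on the Affymetrix HG_U133A array. The genes were selected on the MAS5 signals of these same 2 arrays, whose vorinostat and untreated values were already known, so the ratios below describe them and no test was run. Both cultures were of the same line, grown in standard conditions. The labels gave neither a dose, nor a duration, nor a vehicle for the untreated cells.

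Protein kinase C enzymes are serine and threonine kinases that carry lipid signals from cell surface receptors. The conventional enzymes need calcium and diacylglycerol, a calcium-independent class needs diacylglycerol alone, and the atypical enzymes need neither and are steered by scaffold proteins. Diacylglycerol is made by phospholipase C and removed by diacylglycerol kinases, and the protein kinase D enzymes act one step below protein kinase C. In lymphocytes some of these kinases link antigen receptors to NF-kB through BCL10 and MALT1. Phorbol esters stand in for diacylglycerol and so activate the enzymes that need it, which leaves out the atypical class.

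With 1 array in each group there was no replicate error, and each ratio below is a comparison of these 2 cultures. Signals are MAS5 intensities on a linear scale. Signals below 68.9 units, the 40th percentile over the non-control probe sets of both arrays, were raised to that floor before a ratio was taken, so a ratio with 1 signal at the floor gives a lower limit of the difference, phrased "at least". Where a gene had several probe sets, the one with the highest average log2 signal stood for it, and the others are given beside it. The trimmed mean was 500.2 on each array, and 58.8% of the vorinostat array's probe sets exceeded the floor, against 61.2% of the untreated array's. The Hodgkin antigen gene TNFRSF8 had signals of 3228 in vorinostat-treated and 10777 in untreated cells, and IRF4, another gene typical of Hodgkin cells, had 14699 in treated and 12032 in untreated cells. The chemokine genes CCL17 and CCL22, also typical of these cells, were under the floor on both arrays. The monocyte genes CD14 and LYZ and the epithelial gene EPCAM were at most 10.2 signal units on either array, but other markers of these cell types were near or above the floor. The myeloid genes CSF1R and ITGAM had 149 and 76.5 in treated and 207 and 129 in untreated cells, and the keratin genes KRT8 and KRT18 had 108 and 76.4 in treated and 82.9 and 49.7 in untreated cells. In RNA from whole cultures, fewer cells that express a gene and less of its RNA per cell cannot be told apart.

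Of the 10 kinase genes, PRKCH and PRKCZ were at least 2-fold lower in vorinostat-treated than in untreated cells, and 0 were at least 2-fold higher. The other 8 did not pass 2-fold: 7 had ratios within it, PRKCA closest to the threshold on the higher side, and PRKCB had only a lower limit, which does not place it within 2-fold. Among all 8277 measured genes, 5.12% were at least 2-fold lower and 3.77% at least 2-fold higher. The median log2 ratio of vorinostat over untreated was -0.19 over the 10 kinase genes and -0.04 over all measured genes. That gap depended on the choice of probe set. With the median over the probe sets of each gene, the values were -0.039 for the kinase genes and -0.041 for all. Without shared-sequence probe sets, which left 8 kinase genes measured, they were -0.058 and -0.019. With shared-sequence probe sets kept only where a gene had no other, they were -0.136 and -0.037. Of the 20 probe sets, 14 lay above the floor on both arrays, 4 were under it in treated cells alone, 1 was under it in untreated cells alone and 1 was under it on both. Among the 14, 9 were higher and 5 lower in treated cells. Counted by probe set, 3 of the 20 were at least 2-fold lower, and 0 at least 2-fold higher. The 20 include the 1 under the floor on both arrays, which does not count as measured. Of all 14194 measured probe sets, 5.47% were at least 2-fold lower and 3.65% at least 2-fold higher.

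PRKCH, which encodes the diacylglycerol-dependent eta enzyme, had the lowest ratio among the 8 members whose representative signals were above the floor on both arrays. Its probe set 206099_at had a signal of 83.6 in vorinostat-treated and 412 in untreated cells. Its probe set 218764_at had 51.1 in treated cells, under the floor, and 371 in untreated cells. Both probe sets were thus low in treated cells, at or near the floor. The ratio was 4.92-fold lower on the first and at least 5.38-fold lower on the second, and neither carries a suffix for shared sequence. The log2 ratio of PRKCH, -2.30, ranked 12 from the lowest of 8277. The signal in treated cells lies close to the floor, so a higher floor hides most of the difference: at a floor of 228 units, the 60th percentile, the log2 ratio was bounded at -0.85.

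PRKCZ, which encodes the atypical zeta enzyme of the PAR polarity complex, was represented by a single probe set, 202178_at. Its signal was 20.3 in vorinostat-treated and 225 in untreated cells. The gene was above the floor in untreated cells alone, and the ratio was at least 3.26-fold lower in treated cells. The bound ranked 56 from the lowest. At a floor of 28.4 units, the 25th percentile, the bound on the log2 ratio was -2.98. The antisense gene PRKCZ-AS1 had signals of 9.998 in treated and 10.9 in untreated cells, both under the floor.

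The sequences just upstream of the annotated starts of PRKCH and PRKCZ, the kinase genes past 2-fold, are shown with that of PRKCA, which had the highest ratio of the 10. Each is the 250 bases before a start in RefSeq, build GRCh38.p14, written 5′ to 3′ on the gene's strand, which is the plus strand for all of these. Capitals mark the GC box GGGCGG on either strand. The 3 windows are chr14:61321329-61321578 for PRKCH, chr1:2050161-2050410 for the most upstream of the 4 PRKCZ starts and chr17:66302363-66302612 for PRKCA.
PRKCH: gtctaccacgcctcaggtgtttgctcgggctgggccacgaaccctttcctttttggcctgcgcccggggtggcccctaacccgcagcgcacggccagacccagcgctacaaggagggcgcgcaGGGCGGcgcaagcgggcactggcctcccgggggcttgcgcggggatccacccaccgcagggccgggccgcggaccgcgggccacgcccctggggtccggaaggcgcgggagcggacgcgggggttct
PRKCZ: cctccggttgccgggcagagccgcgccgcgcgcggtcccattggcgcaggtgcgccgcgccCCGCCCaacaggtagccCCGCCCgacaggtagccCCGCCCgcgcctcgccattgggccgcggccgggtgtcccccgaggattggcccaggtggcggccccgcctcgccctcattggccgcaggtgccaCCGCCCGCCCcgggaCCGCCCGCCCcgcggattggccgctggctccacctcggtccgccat
PRKCA: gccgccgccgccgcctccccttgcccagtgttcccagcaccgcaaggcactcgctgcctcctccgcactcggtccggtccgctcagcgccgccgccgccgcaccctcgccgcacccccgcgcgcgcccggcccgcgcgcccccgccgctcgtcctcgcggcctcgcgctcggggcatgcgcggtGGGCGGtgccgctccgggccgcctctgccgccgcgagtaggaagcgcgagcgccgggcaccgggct

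All 3 windows were rich in G and C, at 75.2% for PRKCH, 79.6% for PRKCZ and 82.0% for PRKCA, against a median of 58.0% over 35114 RefSeq windows of the same length. The GC box occurred once in the PRKCH window, 7 times in the PRKCZ window and once in the PRKCA window, counting both strands and overlapping matches. The PRKCZ window also held CCAAT 5 times on either strand, and the other windows shown held none. Over the 16 windows of the 10 kinase genes, 13 held a GC box, against 42.6% of all windows, and 4 held CCAAT, against 32.0%. The window of PRKCQ differed in composition, with 49.2% G and C, 0 GC boxes and 1 TATAAA, a string found in 10.7% of all windows. CCGGAA, the core of ETS factor sites, occurred in 3 of the 16 windows (PRKCH, PRKCI and PRKD3), against 14.5% of all. The E box CACGTG (6.35% of all windows) and the AP-1 string TGANTCA (6.57%) were in 0 of the 16. No matches of different strings overlapped in these 16 windows. A match of letters is no evidence that a factor binds there, and the GC box occurred in windows of kinase genes with higher as well as lower ratios.

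The conventional enzymes are the classical phorbol ester receptors, and PRKCA and PRKCB, of this class, had ratios of opposite sign. PRKCA, encoding the alpha enzyme, had on probe set 213093_at a signal of 855 in vorinostat-treated and 449 in untreated cells. On 215195_at it had 387 in treated and 215 in untreated cells. These 2 probe sets gave 1.90-fold and 1.80-fold higher signals in treated cells, both short of 2-fold, and PRKCA ranked 389 from the highest of the measured genes. The other PRKCA probe sets sat near or under the floor. Probe set 206923_at had 81.1 in treated and 60.5 in untreated cells, and 215194_at had 13.0 in treated and 70.5 in untreated cells. Scaling both arrays to equal medians, which moved the median log2 ratio of all genes to 0.08, gave PRKCA a log2 ratio of 1.06 and so took it past 2-fold. With the median over its probe sets, the log2 ratio of PRKCA was 0.54.

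PRKCB encodes the beta enzyme, which acts below the B cell receptor. Its probe set 209685_s_at had 27.6 in vorinostat-treated and 107 in untreated cells, at least 1.55-fold lower. Its probe set 207957_s_at had 7.46 in treated and 25.2 in untreated cells, both under the floor. The second gives no direction, and on the first the floor sets the size of the ratio: at the 25th percentile floor the log2 bound was -1.91, past 2-fold, and the log2 ratio was -1.49 with an offset of 16 units in place of a floor. Both probe sets of PRKCB carry a suffix for sequence shared with other transcripts.

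The calcium-independent class held PRKCH and 3 genes within 2-fold. PRKCD, whose delta enzyme takes part in apoptosis and restrains B cells, had 326 in vorinostat-treated and 474 in untreated cells, 1.46-fold lower. PRKCE, encoding the epsilon enzyme, had 96.5 in treated and 110.5 in untreated cells, 1.15-fold lower. PRKCQ encodes the theta enzyme, which T cells recruit to the contact with an antigen-presenting cell. On probe set 210038_at it had 259 in treated and 245 in untreated cells, and on 210039_s_at 207 in treated and 164 in untreated cells. Its 2 probe sets were 1.06-fold and 1.27-fold higher in treated cells. Within the class the log2 ratios were -2.30 for PRKCH, -0.54 for PRKCD, -0.20 for PRKCE and 0.08 for PRKCQ.

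The atypical class consisted of PRKCZ and PRKCI, whose iota enzyme shares the PAR complex with zeta. For PRKCI the 3 probe sets gave different directions. Probe set 209678_s_at, which represented the gene, had 981 in vorinostat-treated and 1120.0 in untreated cells, 1.14-fold lower. Probe set 213518_at had 738 in treated and 418 in untreated cells, 1.77-fold higher, and 209677_at had 115 in treated and 73.2 in untreated cells, 1.58-fold higher. The one with a lower ratio is the one whose suffix marks shared sequence. The largest difference between their log2 ratios was 1.01. Over 5372 pairs of probe sets of the same gene, in 2428 genes with signals above the floor on both arrays, that difference had a median of 0.26 and a 90th percentile of 0.71, and 77.0% of pairs had the same direction. The direction of PRKCI was thus not settled: the median over its probe sets was 0.66 and the log2 ratio without shared-sequence probe sets was 0.82.

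The protein kinase D genes lay within 2-fold. PRKD2, the protein kinase D gene best known from lymphocytes, had on probe set 38269_at 827 in vorinostat-treated and 611 in untreated cells, and on 209282_at 397 in treated and 346 in untreated cells. Its probe sets were 1.35-fold and 1.15-fold higher in treated cells. PRKD3 had on 211084_x_at 693 in treated and 731 in untreated cells, and on 218236_s_at 765 in treated and 617 in untreated cells. Its probe sets, both with shared-sequence suffixes, pointed in opposite directions, 1.05-fold lower and 1.24-fold higher, and after scaling to equal medians the first had a log2 ratio of 0.05. PRKD1, the remaining gene of this class, was under the floor on both arrays, with at most 33.3 in treated and 42.7 in untreated cells.

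**Figure D1:**
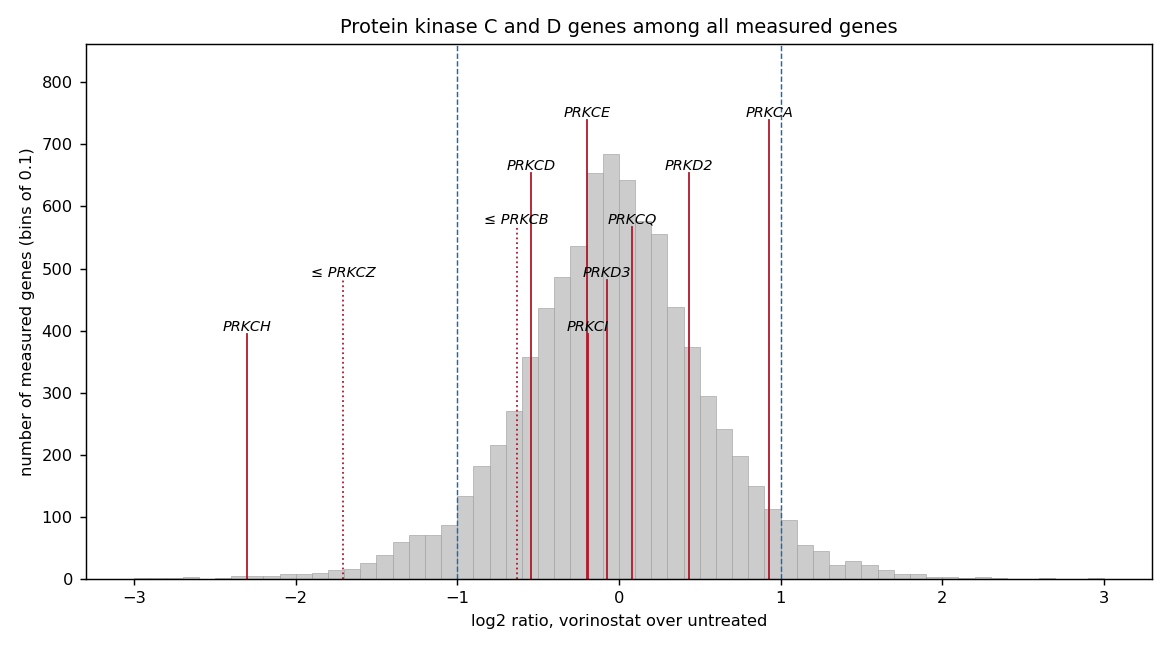
Histogram of the log2 ratio of vorinostat over untreated for the 8277 measured genes, in bins of 0.1, with the 10 kinase genes marked by vertical lines (dotted, with a ≤ sign, where the signal was at the floor in treated cells); dashed lines mark 2-fold. PRKCH at -2.30 and PRKCZ at or below -1.71 lie in the left tail, PRKCB is drawn at its bound of -0.63, and the other 7 lie inside 2-fold.

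The share of genes past 2-fold differed between levels of signal. When the measured genes were split into 3 equal groups by mean log2 signal, PRKCB, PRKCE, PRKCH and PRKCZ fell in the dimmest, where 4.97% of genes were at least 2-fold lower. PRKCA, PRKCD, PRKCQ, PRKD2 and PRKD3 fell in the middle group, where 7.36% were, and PRKCI in the brightest, where 3.04% were. The split used the signals of both arrays, so a low signal in treated cells itself moves a gene towards the dimmest group.

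The genes around the kinases were followed in 9 lists by role, with 134 genes, of which 88 were measured. Of these, 5 were at least 2-fold higher, 8 were at least 2-fold lower and 75 did not pass 2-fold in treated cells, a few of these with only a lower limit of the difference. The shares were 5.68% higher and 9.09% lower, beside 3.77% and 5.12% of all measured genes, and the median log2 ratio was -0.13 beside -0.04.

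Among the phospholipase C and diacylglycerol kinase genes, no measured gene passed 2-fold, PLCB1 having only a lower limit. Of 5 measured phospholipase C genes, 0 passed 2-fold, and the median log2 ratio was -0.14. PLCG1, the isoform below the T cell receptor, had 185 in vorinostat-treated and 156 in untreated cells, 1.19-fold higher. PLCG2, the isoform below the B cell receptor, had 193 in treated and 200.1 in untreated cells. The isoforms PLCB1, PLCD1 and PLCB3 were at least 1.56-fold, 1.12-fold and 1.10-fold lower. The PLCB1 probe set carries a shared-sequence suffix, and its log2 bound was -1.92 at the 25th percentile floor. With the offset in place of a floor a different PLCB1 probe set stood for the gene, with a log2 ratio of -0.10. That probe set had 52.5 in treated and 57.5 in untreated cells, both under the floor. Of 5 measured diacylglycerol kinase genes 0 passed 2-fold, with a median of -0.37. DGKA, which restrains T cell activation, had 285 in treated and 423 in untreated cells, 1.48-fold lower. DGKE had 214 in treated and 322 in untreated cells (log2 ratio -0.59), and DGKD and DGKH were 1.30-fold and 1.12-fold lower. DGKZ had 979.8 in treated and 967 in untreated cells.

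Other proteins that bind diacylglycerol through a C1 domain gave 4 measured genes, of which 1 was at least 2-fold higher and 2 were lower. RASGRP1, which activates Ras when diacylglycerol forms, had 543 in vorinostat-treated and 1517 in untreated cells, 2.79-fold lower. RASGRP2, an activator of Rap, had 96.6 in treated and 215 in untreated cells on its representative probe set, 2.22-fold lower. Its second probe set above the floor had 58.4 in treated and 165 in untreated cells, at least 2.40-fold lower. Both exchange factor genes were lower in treated cells, and both probe sets of RASGRP2 carry a shared-sequence suffix. UNC13B, which primes secretory vesicles, was higher, with 485 in treated and 168 in untreated cells (2.89-fold). CHN1, which acts on Rac, had a log2 ratio of -0.26. Of the related kinases of the PKN family, 1 of 3 was measured: PKN2 had 247 in treated and 245 in untreated cells on its representative probe set, and its shared-sequence probe set was 1.72-fold lower.

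Of 15 measured regulators, anchors and chaperones of the kinases, 1 was at least 2-fold lower and 0 were higher (median -0.14). PDPK1, the kinase that phosphorylates the activation loop of protein kinase C, had 299 in vorinostat-treated and 289.5 in untreated cells. CDC42, the GTPase that activates the PAR complex with the atypical enzymes, had 1209.8 in treated and 3063 in untreated cells, 2.53-fold lower on a shared-sequence probe set. Its other 3 probe sets were 1.60-fold and 1.55-fold lower and level (log2 ratio -0.0039), and the call ended with the median over probe sets (log2 ratio -0.66) and without shared-sequence probe sets (-0.0039). CAVIN3, which binds the delta enzyme, was 1.83-fold lower, PPP1R14B, a phosphatase inhibitor, 1.78-fold lower and SQSTM1, a scaffold of the atypical enzymes, 1.62-fold lower.

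On the path from the kinases to NF-kB, 9 genes were measured, and 1 was past 2-fold in each direction (median -0.02). MALT1, the protease of the complex, had 642 in vorinostat-treated and 371 in untreated cells, 1.73-fold higher, and its second probe set above the floor was 1.66-fold higher. BCL10, the adaptor, had 634 in treated and 464 in untreated cells, 1.37-fold higher. CHUK, an I-kappa-B kinase, was 2.04-fold higher (198 in treated and 97.1 in untreated cells), and TAB2, an adaptor of the kinase TAK1, was 2.07-fold lower (819 in treated and 1695 in untreated cells). TAB1, another partner of TAK1, was at least 1.59-fold lower. IKBKB, another I-kappa-B kinase, had 349 in treated and 532 in untreated cells, 1.52-fold lower. Its other probe sets were 1.82-fold and 1.76-fold lower. The CHUK, IKBKB and TAB2 probe sets and the measured ones of MALT1 carry shared-sequence suffixes. CHUK and TAB2 lay close to the threshold. The log2 ratio of CHUK was 0.92 with the offset. That of TAB2 was -0.92 after scaling to equal medians and -0.94 with the median over probe sets. The other TAB2 probe set was 1.78-fold lower, short of 2-fold.

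Above the kinases, 6 receptor-proximal genes had a measured signal, and 1 passed 2-fold in each direction (median -0.02). FYN, a Src family kinase, had 338 in vorinostat-treated and 114 in untreated cells, 2.96-fold higher. Another FYN probe set had 179 in treated and 65.5 in untreated cells, at least 2.60-fold higher. LAT, the adaptor that recruits phospholipase C gamma, had 167 in treated and 389 in untreated cells, 2.33-fold lower. Its other probe set, without a shared-sequence suffix, had 160.5 in treated and 286 in untreated cells, 1.78-fold lower and so short of 2-fold. The FYN probe sets carry shared-sequence suffixes, and at the 60th percentile floor the log2 bound of FYN was 0.56. VAV3 was 1.07-fold higher, and the adaptor gene LCP2 was 1.09-fold lower on its representative probe set and 1.42-fold higher on the other, with a log2 ratio of 0.0076 for the first after scaling to equal medians.

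Among 24 measured substrates of protein kinase C and D, 2 were at least 2-fold lower and 0 higher (median -0.18). The 2 were class IIa histone deacetylases, which protein kinase D phosphorylates to send them out of the nucleus. HDAC7 had 139 in vorinostat-treated and 421 in untreated cells, 3.02-fold lower, on a shared-sequence probe set, with a log2 bound of -0.88 at the 60th percentile floor. HDAC9 had 65.9 in treated cells, under the floor, and 187 in untreated cells, at least 2.71-fold lower. The other class IIa genes of the list lay within 2-fold, HDAC4 with 385 in treated and 488 in untreated cells and HDAC5 with 703 in treated and 815 in untreated cells. Calmodulin-binding NRGN was 1.75-fold higher. KIDINS220, a membrane substrate of protein kinase D, was 1.66-fold higher on its representative probe set and 2.36-fold higher on another. ADD2 was 1.61-fold lower on its representative probe set, 2.28-fold lower on another and 1.26-fold higher on the remaining one.

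Genes that phorbol esters induce showed no common direction: of 19 measured, 2 were at least 2-fold higher, 1 was lower and 16 did not pass 2-fold (median -0.07). DUSP6, a phosphatase of ERK, had 238 in vorinostat-treated and 104 in untreated cells, 2.29-fold higher. Its second measured probe set had 183 in treated and 134 in untreated cells, 1.36-fold higher. The mean log2 signals of these 2 probe sets were close, so scaling can change which one stands for the gene. The log2 ratio was 0.56 after quantile normalization and 1.31 after loess. The nuclear receptor gene NR4A3 had 155 in treated cells and 50.5, under the floor, in untreated cells, at least 2.25-fold higher. The AP-1 gene JUNB had 3181 in treated and 6463 in untreated cells, 2.03-fold lower, and its log2 ratio was -0.89 after scaling to equal medians. ODC1 was 1.98-fold higher and passed 2-fold after scaling to equal medians (log2 ratio 1.11), quantile normalization (1.04) and loess (1.01), and the NF-kB inhibitor gene NFKBIA had 4303 in treated and 6497 in untreated cells, 1.51-fold lower.

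**Figure D2:**
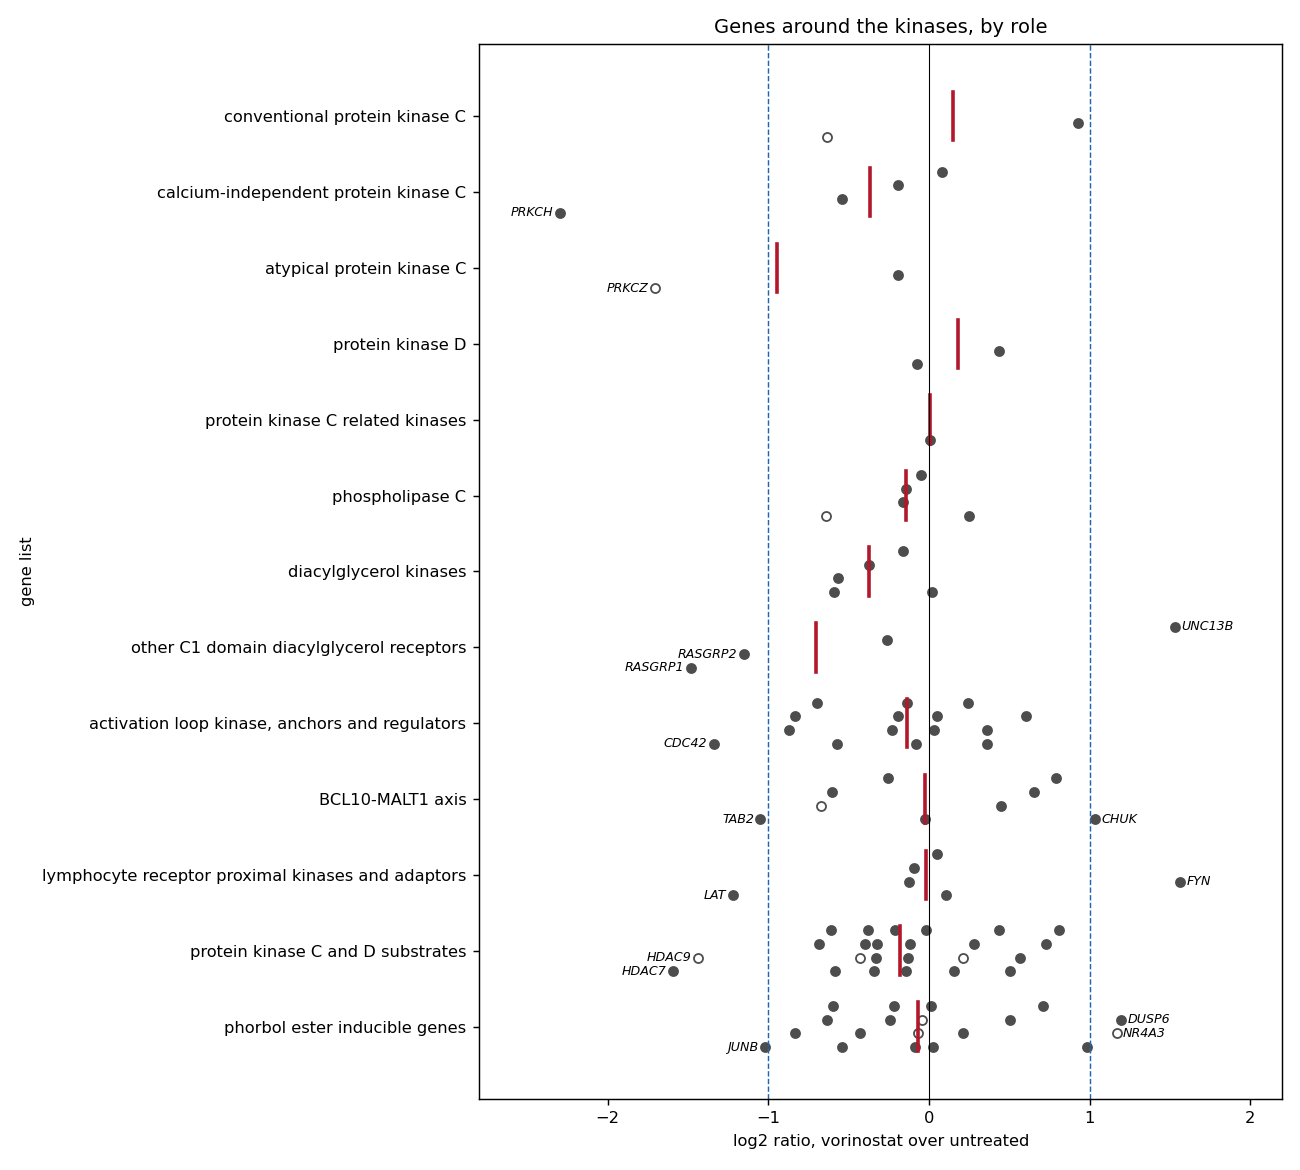
Log2 ratio of vorinostat over untreated for each measured gene of the 4 kinase classes and of the 9 lists around them, 1 point per gene (open where 1 signal was at the floor, so that the value is a bound); red bars are list medians and dashed lines mark 2-fold. Past 2-fold on the lower side are PRKCH, PRKCZ and 8 genes of the lists, and on the higher side 5 genes of the lists.

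Some markers of lymphoid cells were lower in treated cells, as PRKCH and PRKCZ were. Of 8 measured Hodgkin cell markers 3 were at least 2-fold lower and 0 higher, and the 10 with a probe set summed to 22943 signal units in vorinostat-treated and 32489 in untreated cells. Of 8 measured T and natural killer cell markers 3 were at least 2-fold lower and 0 higher, beside 5.12% of all measured genes lower. One of the 3, the receptor chain gene CD3E, had 47.4 in treated cells, under the floor, and 139 in untreated cells, and its log2 bound of -1.01 fell short of 2-fold after scaling to equal medians (-0.94), quantile normalization (-0.94) and loess (-0.93). Over the 12 markers with a probe set, 6 were above the floor in vorinostat-treated and 8 in untreated cells, and their summed signal was 8335 in treated and 17491 in untreated cells. The receptor chain gene CD247 had 942 in treated and 4463 in untreated cells, and PRF1, the perforin gene of killer cells, had 2819 in treated and 6777 in untreated cells, while CD3D and CD3G were under the floor on both arrays. Of 4 measured B cell markers 3 were at least 2-fold lower. Of these, PAX5 had a log2 ratio of -1.30 that was -0.70 with the median over probe sets and -0.45 at the 60th percentile floor. The summed signal of the 7 B cell markers with a probe set was 743 in treated and 2814 in untreated cells. MS4A1, CD79A and CD79B were under the floor on both arrays. The largest signal in that sum was that of IGHM, with 222 in treated and 1576 in untreated cells on a shared-sequence probe set. The log2 ratio of IGHM was -2.83, and -1.38 without shared-sequence probe sets. Of 2 measured myeloid markers and 5 stromal and epithelial ones 0 passed 2-fold. The myeloid markers summed to 367 in treated and 468 in untreated cells. The stromal and epithelial markers summed to 18931 in treated and 19211 in untreated cells, almost all of it from VIM, which had 18295 in treated and 18642 in untreated cells. The part of these marker differences in the kinase ratios was not tested.

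**Figure D3:**
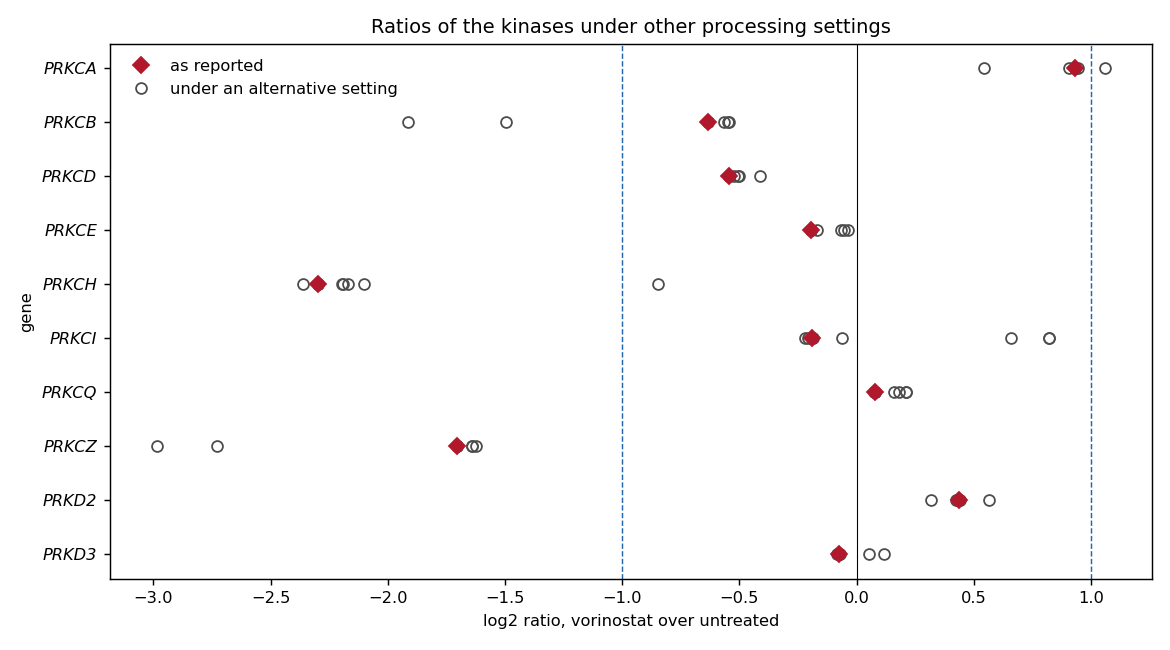
Log2 ratio of vorinostat over untreated for each of the 10 kinase genes as reported (diamond) and under the alternative settings in which it was measured (open circles, up to 9); dashed lines mark 2-fold. PRKCH leaves the 2-fold side only at -0.85 with the floor at the 60th percentile. PRKCB passes 2-fold at -1.91 and -1.49 with a lower floor and with the offset. PRKCI and PRKD3 appear on both sides of 0. PRKCA reaches 1.06 after scaling to equal medians and is at 0.54 with the median over probe sets.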

How the data were processed

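The authors deposited 1 MAS5 signal per probe set, a linear intensity, for 1 array a group. MAS5 is named per the submitters' processing notes; its version, scaling target and detection calls are not given in the sources used here. It reduces the probes of a set to 1 signal and scales an array by 1 factor, so it leaves signal-dependent bias and noise near background. The deposited scaling was kept.

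Of 22283 probe sets, 68 controls were left out. Symbols came from the platform annotation, updated through RefSeq gene identifiers (GRCh38.p14): 19065 probe sets carried 1 symbol (11963 genes), 1043 several and 2107 none, and only the first were used. The floor of 68.9 lay above the 27 poly-A control probe sets (at most 43.1). Log2 ratios were taken on floored signals; no test was possible with 1 array per group. The precision is limited by that number.

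Values were computed with Python 3.11.15, numpy 2.4.6 and pandas 2.3.3, and the steps were tested on simulated data. The simulated differences were placed in genes well above the floor, so the test does not cover genes near it, such as PRKCH and PRKCZ. All kinase genes were named, and in each pathway list every gene past 2-fold and up to 4 with the largest ratios. Genes in further sentences (PLCG2, DGKZ, PDPK1, BCL10, IKBKB, ADD2, HDAC4, HDAC5, NFKBIA, PRKCZ-AS1) and the markers named were chosen after their values were seen. The members and lists were chosen with earlier results of these data known. Alternatives covered scaling (equal medians, quantile, loess), floor (25th and 60th percentile, an offset of 16), choice of probe set and threshold (1.5-fold and 3-fold).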

Additional observations from a re-analysis of the deposited data

How the results depend on the processing

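No paired analysis was possible because each group held 1 array, and no replicate could be left out. PRKCH and PRKCZ were at least 2-fold lower under 8 of the 9 alternatives of scaling, floor and probe set choice. Several of these could not change the result. PRKCZ has 1 probe set, so the choice of probe set leaves it as it was. Neither PRKCH probe set carries a shared-sequence suffix, so leaving out shared sequence changes nothing, and a lower floor cannot shrink either difference. With the floor at the 60th percentile 0 kinase genes were lower, PRKCZ being unmeasured and PRKCH a bound, since fewer genes clear that floor. After scaling to equal medians 1 kinase gene, PRKCA, was higher, and at 1.5-fold 1 was higher. With PRKCB added to PRKCH and PRKCZ, 3 were lower at 1.5-fold, at the 25th percentile floor and with the offset. Scaling to equal medians also turned the share of 2-fold calls that were higher to 58.8%, against 42.4% as deposited.

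Among all measured genes, 1051 were higher and 1283 lower at 1.5-fold, and 45 higher and 77 lower at 3-fold. The offset in place of a floor gave 471 higher and 707 lower of 11963 genes (3.94% and 5.91%). As reported, 312 and 424 of 8277 genes were (3.77% and 5.12%). A 25th percentile floor gave 689 lower and a 60th percentile floor 251 lower, with more and fewer genes measured. Without shared-sequence probe sets 251 of 5187 genes were lower.

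For the genes around the kinases, settings added after seeing the data gave 12 higher and 20 lower at 1.5-fold, 0 higher and 1 lower at 3-fold, 1 higher and 4 lower at the 60th percentile floor, and 2 higher and 4 lower without shared-sequence probe sets, against 5 and 8 as reported. Each of these settings moves the threshold or measures fewer genes. The median difference between probe sets of a gene ranged from 0.21 to 0.35 over 3 other floors.

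Signals near the floor limit PRKCB, PRKCE, PRKCH and PRKCZ the most, and PRKCZ, PRKCD and PRKCE rest on 1 probe set each.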
